A study of Mus musculus with 12 samples.

Results

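SHAM scar tissue was compared with unoperated paraspinal soft tissue, which in mice is largely back muscle with its connective tissue, fat and vessels. The comparison covered 8 of the 12 mice sequenced, chosen by their group labels, with 4 mice in the SHAM group and 4 in the No operation group. Every gene of the count table was considered, and 14765 of 18996 genes had enough counts to be tested. By the study's methods all groups were BALB/c mice of 5 to 7 weeks. The study as a whole used male and female mice, and the sex of the mice in each group is not given in the sources used here. SHAM mice had soft tissue beside the spine taken out with the lamina left in place, so removal of part of this tissue belongs to what the group underwent, and samples were taken at day 7. No operation mice had no surgery, and their tissue was labelled as paraspinal soft tissue, while that of SHAM mice was labelled as scar together with paraspinal soft tissue. The remaining 4 mice had a laminectomy, in which the lamina is removed as well.

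A skin and muscle wound passes through overlapping stages. Damaged cells and the first macrophages release chemokines that bring in neutrophils and then monocytes. Macrophages clear dead fibres, lipid and red cells and shift towards a repair state. Fibroblasts lay down a provisional matrix of fibronectin and tenascin and then collagen, which is folded in the endoplasmic reticulum, cut outside the cell and crosslinked by lysyl oxidases. Injured muscle fibres are replaced by satellite cells, the muscle stem cells, which commit to the myogenic programme, fuse and pass through a stage with embryonic myosins. Blood vessels sprout into the new tissue. In bulk tissue, fewer cells of a type and less RNA per cell cannot be told apart, and this holds for every result given here.

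Levels are given in CPM, counts scaled to a library of fixed size after TMM scaling, with the 4 mice of a group in the order of replicates 1 to 4. A gene was called higher or lower when edgeR's quasi-likelihood F-test, adjusted over all genes tested by the method of Benjamini and Hochberg, gave p under 0.05 and the log2 fold change was beyond 0.5 in size. Errors on log2 fold changes are standard errors. Libraries held 16802988 to 18077863 counts. SHAM against No operation gave 7502 called genes, 50.8% of those tested, of which 3799 were higher (25.7%) and 3703 lower (25.1%) in SHAM mice. Among these, 804 genes had a log2 fold change above 2 and 934 one below -2. Scaling by total counts in place of TMM moved the median of all genes by 0.25 on the log2 scale and the share of called genes that were higher from 50.6% to 66.0%. With TMM the median over all genes tested was -0.0020, so lists of genes below are read against a median near 0 and against these shares. The first principal component of the 8 mice separated the groups and held 71.0% of the variance. The mice of both groups did not overlap in 8049 of the genes tested (54.5%), so a lack of overlap reported below is a common trait.

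Mice also differed within groups, in ways that touch the results below. SHAM replicate 1 had the highest summed level of the SHAM group in 12 of 15 inflammatory lists and almost none of the regenerating muscle genes found in the other SHAM mice: *Myh3*, the embryonic myosin heavy chain, had 20.1, 7.37, 21.3 and 12.1 CPM in unoperated mice against 1.35, 587, 639.9 and 1009 CPM in SHAM mice. SHAM replicates 1 and 3 carried keratinocyte genes, and replicate 3 had the highest summed level of white adipocyte genes in the SHAM group. In the No operation group, replicates 2 and 3 carried marrow genes, with *Ngp*, a granule protein of maturing neutrophils, at 11.1, 1429, 516 and 10.9 CPM against 2.02, 29.3, 66.04 and 272 CPM in SHAM mice, and replicate 1 had the highest unoperated levels of the scar fibroblast genes *Postn*, *Cthrc1* and *Lrrc15*. Without SHAM replicate 1, 7190 of 14915 genes tested were called (48.2%), 6915 of them shared with the full comparison and all 6915 in the same direction. Where leaving out 1 mouse moved the fold given here for a called gene by over 1.5 times, its log2 fold change without that mouse is given in the text, and the gene was still called unless stated. The exceptions are *Cxcl3* and *Odf3l2*, where 3 or fewer counts were left in 1 group.

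**Figure D1:**
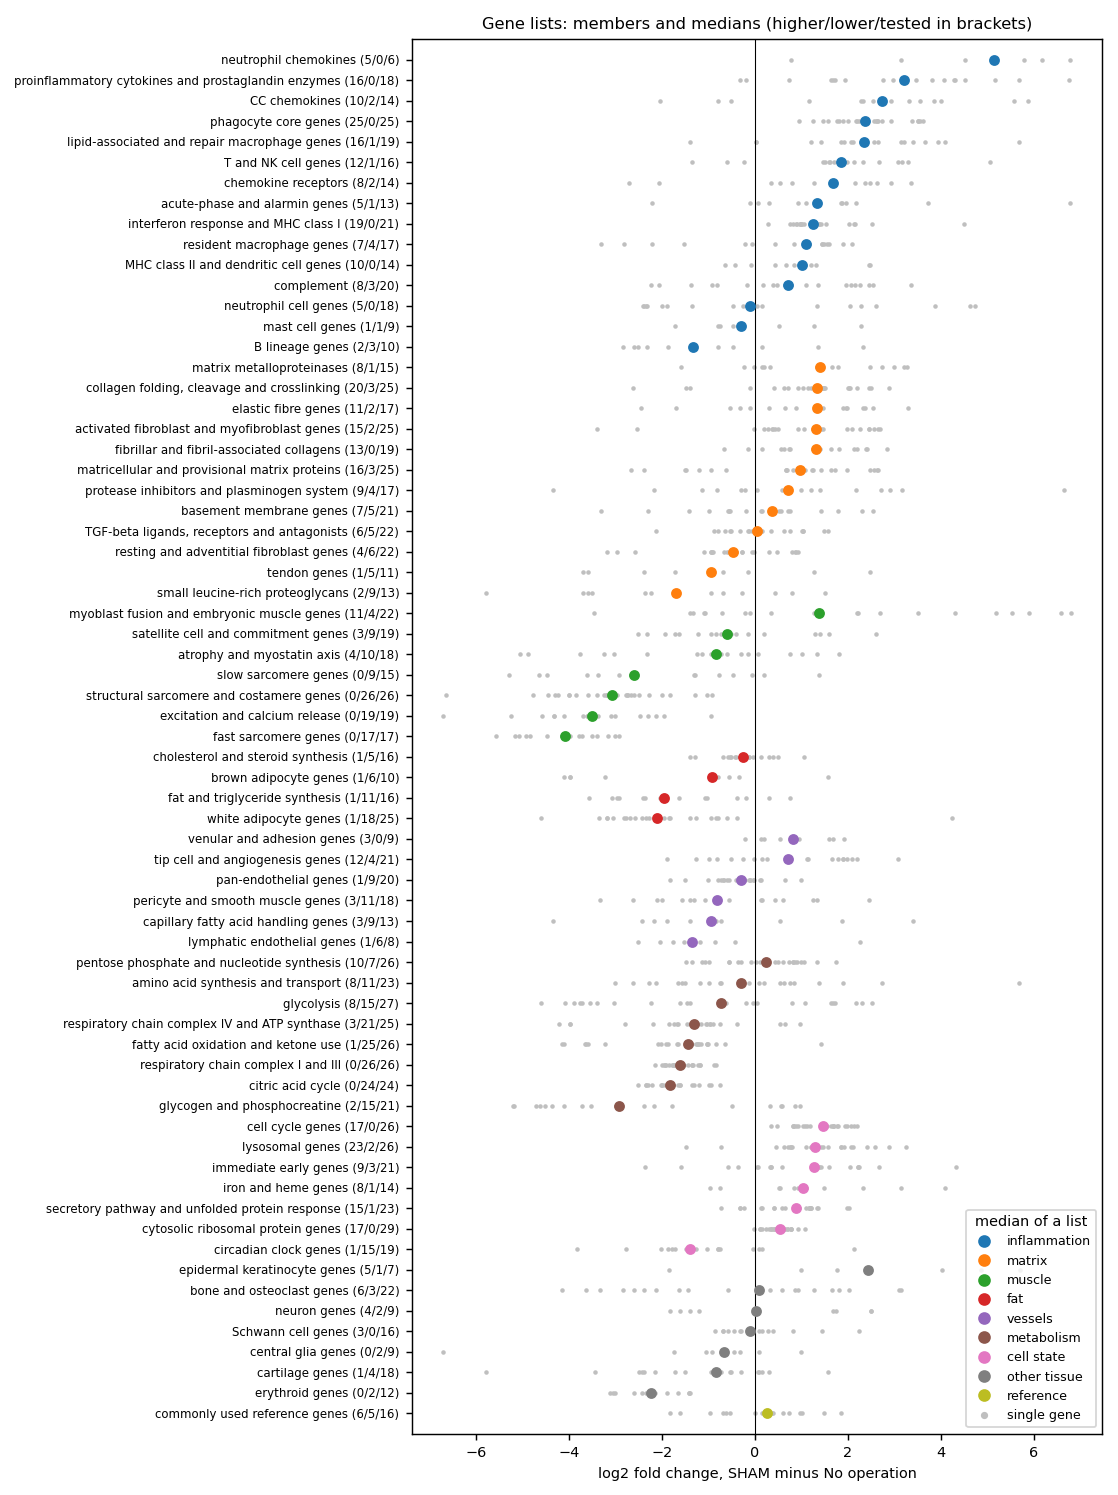
Log2 fold change, SHAM minus No operation, of each tested member (grey) and the median (coloured by theme) of 67 gene lists, with the counts of members called higher, called lower and tested in brackets. Neutrophil chemokines had the highest median, 5.15, and fast sarcomere genes the lowest, -4.09.

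The 10 largest increases among well-expressed genes without overlap between groups included 4 chemokines. *Cxcl5*, a neutrophil-attracting chemokine, had 8.61, 0.252, 0.133 and 0 CPM in unoperated mice against 458, 207, 118 and 196 CPM in SHAM mice (log2 fold change 6.77 ± 1.21, adjusted p = 0.000533). *Saa3*, an acute-phase serum amyloid A made in inflamed tissue, had 59.1, 0.945, 0.599 and 0.491 CPM and 4301, 1461, 584 and 334 CPM (log2 fold change 6.77 ± 1.65, adjusted p = 0.00405). In both, No operation replicate 1 stood above the other unoperated mice and below every SHAM mouse. Without it the log2 fold changes of *Cxcl5* and *Saa3* were 10.78 ± 0.993 (adjusted p = 1.43e-05) and 11.24 ± 1.24 (adjusted p = 4.01e-05), and that of *Arg1* was 10.63 ± 1.92 (adjusted p = 0.000845). Without SHAM replicate 1, the highest SHAM mouse in each, the value of *Saa3* was 5.71 ± 1.52 (adjusted p = 0.00826), that of *Cxcl3* 5.02 ± 1.29 (adjusted p = 0.00693), that of *Serpinb2* 5.11 ± 0.927 (adjusted p = 0.000917) and that of *Arg1* 3.96 ± 1.56 (adjusted p = 0.049). For *Cxcl3* the other 3 unoperated mice held 1 count in all, so no fold is given without No operation replicate 1. *Serpinb2*, an inhibitor of plasminogen activators, rose by 6.65 ± 1.22, although 12.4% of its exon bases are shared with Serpinb10 on the same strand. *Cxcl3*, *Ccl3* and *Cxcl2*, chemokines for neutrophils and monocytes, rose by 6.18 ± 1.39, 5.87 ± 0.727 and 5.78 ± 0.966. *Acod1*, which makes the antimicrobial metabolite itaconate, rose by 5.79 ± 1.09 and *Il6*, a cytokine that drives the acute phase, by 5.69 ± 0.836. *Arg1*, the arginase of repair-type macrophages, rose by 5.68 ± 1.82, with SHAM mice at 1665, 169, 86.7 and 232 CPM and unoperated mice at 41.01, 0.378, 0.266 and 0.350 CPM. *Ptprn*, a protein of dense-core secretory granules in neuroendocrine cells, rose by 5.75 ± 0.429, from at most 0.689 CPM in unoperated mice to 16.6, 11.98, 15.1 and 22.8 CPM. *Serpinb2*, *Ccl3*, *Cxcl2*, *Acod1*, *Il6* and *Ptprn* were at 7.62 ± 1.44, 6.70 ± 0.815, 7.68 ± 0.995, 7.25 ± 1.27, 6.93 ± 0.964 and 6.499 ± 0.409 without No operation replicate 1.

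The 10 largest decreases were chosen by the same rule. *Odf3l2*, a gene named for outer dense fibres of sperm tails, had 6.41, 2.27, 32.8 and 29.4 CPM in unoperated mice against 0, 0.107, 0.0530 and 0 CPM in SHAM mice. It had 1041 counts against 3, a ratio of 431 with an exact 95% counting interval of 147 to 2090.0, which leaves out the spread between mice. *Aqp4*, the water channel of fast muscle fibres, fell from 38.2, 58.00, 77.5 and 106 CPM to 0.618, 0.321, 1.11 and 0.587 CPM (log2 fold change -6.71 ± 1.19, adjusted p = 0.00052). *Smco1* and *Mylk4*, a muscle-enriched membrane protein and a myosin light chain kinase, fell, with log2 fold changes of -6.64 ± 0.567 and -6.53 ± 0.439. *Angptl7* and *Chad*, secreted proteins of connective tissue and cartilage, fell, with log2 fold changes of -6.22 ± 0.971 and -5.78 ± 0.795. *Chad* had 119, 373, 774 and 434 CPM in unoperated mice against 1.85, 4.60, 15.9 and 8.49 CPM in SHAM mice, with no overlap between groups. *Scn4b*, a subunit of voltage-gated sodium channels, fell by 5.83, *Efcab6* fell by 6.496, *Plcd4*, a phospholipase C, fell by 5.79 and *Car14*, a carbonic anhydrase of the muscle membrane, fell by 5.63. Exons of Zfp142 on the opposite strand cover 29.8% of the exon bases of *Plcd4*, and those of Aph1a 17.5% of *Car14*. By the study's methods, reads were counted at default settings, yet 10.2% of the deposited values are not whole. How reads in such overlaps were counted is therefore not known. The overlaps were taken from GENCODE, and the gene annotation used for counting may differ. All 20 genes were called in the same direction without SHAM replicate 1. Among genes named further on, *Igf2*, *Pfkm* and *Cpt1b* share 62.8%, 10.2% and 81.4% of their exon bases with an overlapping gene of the same strand. For *Ckm*, *Mest*, *Icam1*, *Cox6a2* and *Dbp* the share with a gene of the opposite strand is 10.3% to 23.1%. Whether these overlaps changed the counts was not tested. *Angptl7*, *Chad* and *Efcab6* were at -7.04 ± 1.07, -6.41 ± 0.858 and -7.28 ± 0.723 without SHAM replicate 3.

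**Figure D2:**
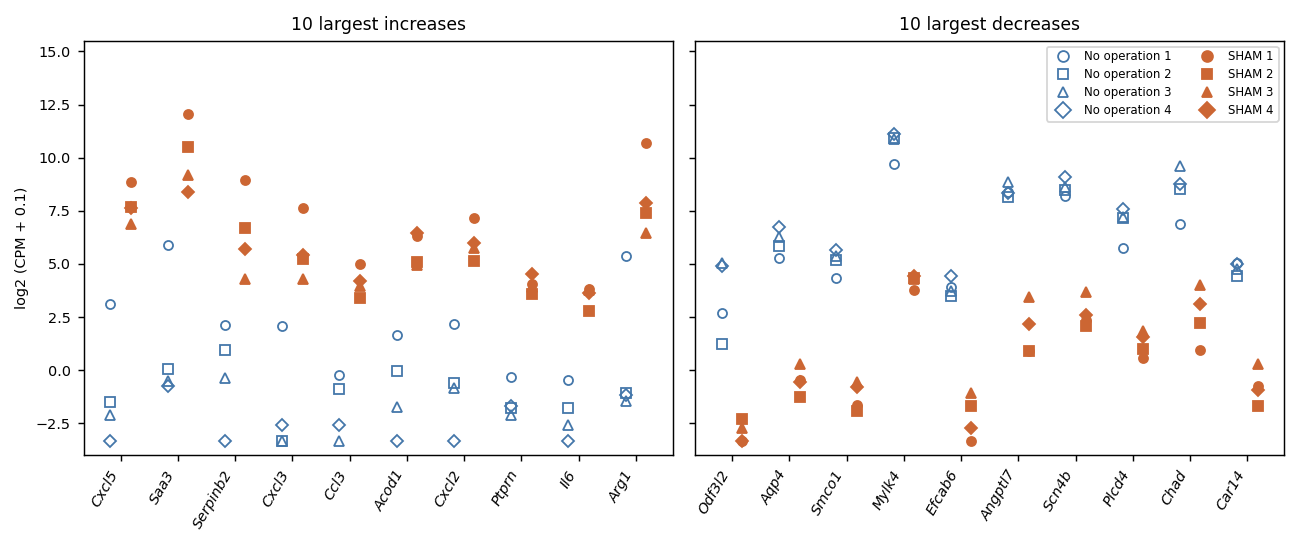
Level in each mouse, as log2 of CPM plus 0.1, of the 10 genes with the largest increase and the 10 with the largest decrease (open blue, No operation; filled orange, SHAM; symbol shape, replicate number). The groups do not overlap for any of the 20 genes, which the choice of genes required, and No operation replicate 1 is the highest unoperated mouse for each of the 10 that rose.

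Chemokines for neutrophils were among the strongest changes. Among the neutrophil chemokines 5 of 6 members tested were called higher and 0 lower, with a median log2 fold change of 5.15. *Cxcl1*, made by stroma and macrophages, had 2.96, 2.14, 0.799 and 0.911 CPM in unoperated mice against 55.9, 38.7, 35.01 and 27.8 CPM in SHAM mice (log2 fold change 4.52 ± 0.515, adjusted p = 2.82e-05), and every SHAM mouse was above every unoperated one. *Pf4*, a platelet and macrophage chemokine, rose by 3.15 ± 0.434. *Cxcl1*, *Cxcl2* and *Cxcl3* lie together on chromosome 5, and each holds the kappaB motif searched here (GGG, any 2 bases, then TTTCC, on either strand) in the 250 bases before its RefSeq start. Capitals mark the matches in these 3 promoters (GRCm38.p6, plus strand, chr5:90890995-90891244, chr5:90903649-90903898 and chr5:90785851-90786100), which are shown because the genes rose together and the motif is that of NF-kappaB, the main factor of inflammatory gene induction.
Cxcl1: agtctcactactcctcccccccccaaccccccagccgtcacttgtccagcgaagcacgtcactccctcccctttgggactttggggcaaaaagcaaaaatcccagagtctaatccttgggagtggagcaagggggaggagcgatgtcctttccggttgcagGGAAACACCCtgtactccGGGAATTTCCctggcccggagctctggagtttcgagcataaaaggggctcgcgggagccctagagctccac
Cxcl2: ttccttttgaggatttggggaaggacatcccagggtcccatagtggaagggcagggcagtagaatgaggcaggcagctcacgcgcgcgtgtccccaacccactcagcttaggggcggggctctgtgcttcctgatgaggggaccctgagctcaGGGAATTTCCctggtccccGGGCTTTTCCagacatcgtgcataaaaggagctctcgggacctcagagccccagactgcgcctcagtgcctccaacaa
Cxcl3: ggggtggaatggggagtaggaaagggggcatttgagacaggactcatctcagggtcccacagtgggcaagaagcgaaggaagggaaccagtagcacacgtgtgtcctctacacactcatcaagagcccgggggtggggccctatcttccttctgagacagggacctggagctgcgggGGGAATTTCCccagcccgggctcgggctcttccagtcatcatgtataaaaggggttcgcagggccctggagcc
The motif was present in 3 of 6 chemokines of the list with a promoter in the RefSeq table, in 3 of 14 cytokine genes and in 1.65% of all 27025 genes with a promoter there (1.41% of all 32851 promoters of that length). A match is a description of the sequence and was not tested as a binding site.

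Cytokines of the interleukin 1, interleukin 6 and TNF families rose with them. In the list of proinflammatory cytokines and prostaglandin enzymes 16 of 18 members tested were called higher and 0 lower, with a median of 3.22. *Il1b*, the main interleukin 1 of phagocytes, had 7.65, 9.19, 2.40 and 0.140 CPM in unoperated mice against 260.4, 80.4, 152 and 211 CPM in SHAM mice (log2 fold change 5.17 ± 0.806, adjusted p = 0.000214). Its natural antagonist *Il1rn* rose by 4.31 ± 0.697, and the anti-inflammatory cytokine *Il10* by 4.53 ± 0.579, from at most 0.252 CPM to 3.20, 2.41, 2.59 and 3.15 CPM. *Il6* had 0.620, 0.189, 0.0666 and 0 CPM and 14.05, 6.69, 13.5 and 12.2 CPM. *Tnf* rose by 3.81 ± 0.805, *Nos2*, the inducible nitric oxide synthase, by 4.06 ± 0.748 and *Ptgs2*, the inducible cyclooxygenase, by 4.29 ± 0.561. For *Nos2* the SHAM mice were at 369, 76.7, 37.7 and 47.8 CPM, so replicate 1 was far above the other SHAM mice, and without it the log2 fold change was 2.77 ± 0.407 (adjusted p = 0.000245). *Csf1*, the growth factor of macrophages, rose by 0.74 ± 0.156. The 2 members of the list that were tested and not called were *Ptgs1*, the constitutive cyclooxygenase, and *Ptgis*, the prostacyclin synthase, with log2 fold changes of -0.33 ± 0.168 and -0.19 ± 0.319. *Il1rn* and *Ptgs2* were at 4.96 ± 0.742 and 5.05 ± 0.515 without No operation replicate 1. *Il10* was at 5.24 ± 0.648 without No operation replicate 2.

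Most CC chemokines and all phagocyte core genes tested were called higher. Among CC chemokines 10 of 14 members tested were called higher and 2 lower, with a median of 2.74. *Ccl2* and *Ccl7*, ligands of the monocyte receptor *Ccr2*, rose by 3.31 ± 0.737 and 4.00 ± 0.765, and *Ccr2* itself by 1.72 ± 0.370. Without No operation replicate 1 the value of *Ccl2* was 5.06 ± 0.338 (adjusted p = 4.34e-06). *Ccl21a*, made by lymphatic vessels, was called lower, with 70.5, 50.5, 88.5 and 57.2 CPM in unoperated mice and 14.6, 12.7, 19.9 and 17.8 CPM in SHAM mice (log2 fold change -2.04 ± 0.451, adjusted p = 0.0022). Of the chemokine receptors 8 of 14 members tested were called higher and 2 lower, with a median of 1.69. The 2 lower ones, *Ackr2* and *Ackr4*, decoy receptors that remove chemokines, were at 14.3, 5.73, 11.4 and 8.97 and 7.51, 17.1, 11.3 and 4.42 CPM in unoperated mice against 2.64, 1.87, 3.23 and 1.87 and 0.843, 1.23, 2.22 and 1.87 CPM in SHAM mice, with log2 fold changes of -2.07 ± 0.353 and -2.70 ± 0.519. In the list of phagocyte core genes 25 of 25 members tested were called higher, against 25.7% of all genes, with a median of 2.37. The summed level of that list was 2371, 2453, 1524 and 832 CPM in unoperated mice and 12068, 7417, 6310.2 and 8179 CPM in SHAM mice. *Lyz2*, lysozyme, had 867, 794, 518 and 289.5 CPM and 3990.3, 3004, 2331 and 3049 CPM (log2 fold change 2.32 ± 0.344, adjusted p = 0.000151). *Cd14* rose by 3.52 ± 0.559 and *Fcgr1*, a high-affinity antibody receptor, by 3.52 ± 0.497. *Ccl7* and *Fcgr1* were at 5.81 ± 0.363 and 4.11 ± 0.458 without No operation replicate 1. *Cd14* was at 2.93 ± 0.459 without SHAM replicate 1.

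Genes of macrophages in a repair and lipid-handling state were mostly higher, and those of resident tissue macrophages were called in both directions. Of the lipid-associated and repair macrophage genes 16 of 19 members tested were called higher and 1 lower, with a median of 2.34. *Spp1*, osteopontin, had 131, 424, 145 and 8.97 CPM in unoperated mice against 1208, 1149.5, 1500.2 and 2439 CPM in SHAM mice (log2 fold change 3.15 ± 0.800, adjusted p = 0.00511), and 18.8% of its exon bases are shared with Gm42793 on the same strand. *Trem2*, a lipid-sensing receptor, rose by 3.66 ± 0.540, *Gpnmb* by 2.56 ± 0.262 and *Fabp5*, a fatty acid carrier, by 3.40 ± 0.286. *Hmox1*, which breaks down heme, had 107, 46.7, 25.04 and 23.1 CPM and 1336, 687, 589 and 814 CPM (log2 fold change 4.08 ± 0.568, adjusted p = 9.73e-05). For resident macrophage genes 7 of 17 members tested were called higher and 4 lower, with a median of 1.11, and with No operation replicates 2 and 3 both left out 4 were higher. The count called lower is near the share of all genes tested, 25.1%. *Mrc1*, the mannose receptor, rose by 1.91 ± 0.364 and *Stab1*, a scavenger receptor, by 2.10 ± 0.256. *Retnla* and *Mgl2*, genes of the interleukin 4 programme, and *Timd4*, a receptor for dying cells on long-lived macrophages, fell, with log2 fold changes of -3.31 ± 0.912, -2.21 ± 0.348 and -2.83 ± 0.535. *Timd4* had 4.69, 4.60, 6.06 and 7.43 CPM in unoperated mice against 0.899, 0.695, 1.38 and 0.214 CPM in SHAM mice, with no overlap between groups. *Trem2* and *Hmox1* were at 4.57 ± 0.375 and 4.76 ± 0.509 without No operation replicate 1. *Spp1* was at 4.05 ± 0.806 without No operation replicate 2. *Retnla* was at -4.23 ± 0.967 without SHAM replicate 1.

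Genes of mature and maturing neutrophils did not move as one list. Among neutrophil cell genes 5 of 18 members tested were called higher and 0 lower, with a median of -0.11, and the summed level was 138, 5227, 1935 and 44.4 CPM in unoperated mice against 2408, 997, 1079.7 and 2555 CPM in SHAM mice. The count called higher is near the share of all genes tested, 25.7%. Replicates 2 and 3 of the No operation group carried most of the unoperated signal, and with both left out 12 of 18 members were called higher, a choice made after seeing the data. *Clec4d* and *Clec4e*, C-type lectin receptors of activated neutrophils and macrophages, were called higher in the full comparison, by 4.75 ± 0.873 and 4.62 ± 0.887, as was *Csf3r*, the receptor for granulocyte colony-stimulating factor, by 2.62 ± 0.696. *S100a9*, an alarmin of neutrophils, had 18.8, 914, 361 and 6.38 CPM and 364, 114, 160.3 and 449 CPM (log2 fold change -0.26 ± 1.12, adjusted p = 0.855), and with No operation replicates 2 and 3 both left out it was at 4.44 ± 0.951 (adjusted p = 0.0035). *Ltf*, lactoferrin of neutrophil granules, had 7.10, 783, 281 and 5.12 CPM and 0.506, 13.4, 40.8 and 156 CPM, so the highest levels were again in No operation replicates 2 and 3. The part of marrow carried with the tissue in these values was not tested. *Clec4d* was at 5.77 ± 0.900 without No operation replicate 1. *Csf3r* was at 3.48 ± 0.666 without No operation replicate 2. *Clec4e* was at 3.99 ± 0.822 without SHAM replicate 1.

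Antigen presentation and interferon genes were mostly higher, and complement genes were called in both directions. For interferon response and MHC class I genes 19 of 21 members tested were called higher and 0 lower, with a median of 1.24. *Cxcl10*, an interferon-induced chemokine for T cells, had 0.896, 1.01, 0.932 and 0.561 CPM in unoperated mice against 5.96, 22.8, 24.5 and 24.4 CPM in SHAM mice (log2 fold change 4.50 ± 0.666, adjusted p = 0.00015), with SHAM replicate 1 the lowest of its group. *H2-K1*, a class I heavy chain, rose by 0.99 ± 0.225 and *B2m*, its partner, by 1.02 ± 0.204. In the MHC class II and dendritic cell list 10 of 14 members tested were called higher and 0 lower, including *Cd74*, the invariant chain, at 0.83 ± 0.175. Of the complement genes 8 of 20 members tested were called higher and 3 lower, with 1 lower without No operation replicate 3 or SHAM replicate 2. The 3 chains of C1q, made by macrophages, rose together (*C1qa* 2.07 ± 0.273, *C1qb* 2.27 ± 0.280, *C1qc* 1.96 ± 0.274), whereas *C3* had 1243, 828, 931 and 781 CPM and 2745, 832, 1616 and 756 CPM (log2 fold change 0.65 ± 0.435, adjusted p = 0.211) with overlapping groups. *Cd59a*, which protects cells from the terminal complex, fell by 1.37.

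In the T and NK cell list 12 of 16 members tested were called higher and 1 lower, with a median of 1.85. *Cd3g*, a chain of the T cell receptor complex, had 0.551, 0.315, 0.200 and 0.140 CPM in unoperated mice against 1.35, 1.34, 1.06 and 1.12 CPM in SHAM mice (log2 fold change 1.99 ± 0.451, adjusted p = 0.0026), and *Gzmb*, the cytotoxic protease granzyme B, rose by 5.07 ± 0.825, and by 3.93 ± 0.516 (adjusted p = 0.000126) without SHAM replicate 1. *Cd4*, which macrophages can also carry, rose by 3.29 ± 0.518, to 13.3, 16.7, 12.4 and 17.1 CPM. In the B lineage list 2 of 10 members tested were called higher and 3 lower, but 1 was lower when any of 6 mice (No operation replicates 2 and 3 and the 4 SHAM mice) was left out and 5 without No operation replicate 1. The *Cd79a* chain of the B cell receptor had 0.138, 11.7, 3.80 and 0.210 CPM and 0.281, 0.749, 0.741 and 0.801 CPM, a log2 fold change of -2.61 ± 1.05 that was not called without any of the same 6 mice (-2.73 to -1.10, adjusted p of 0.0726 to 0.315) and turned to 1.85 (adjusted p = 0.041) with No operation replicates 2 and 3 both left out. *Sdc1*, a plasma cell marker that is also expressed by activated macrophages and epithelium, rose by 2.33 ± 0.294. In the mast cell list 1 of 9 members tested were called higher and 1 lower, and *Cpa3*, the mast cell carboxypeptidase, had 23.5, 12.2, 10.5 and 13.7 CPM and 18.04, 10.3, 12.2 and 2.35 CPM (log2 fold change -0.48 ± 0.545, adjusted p = 0.46). *Cd4* was at 3.88 ± 0.511 without No operation replicate 2.

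**Figure D3:**
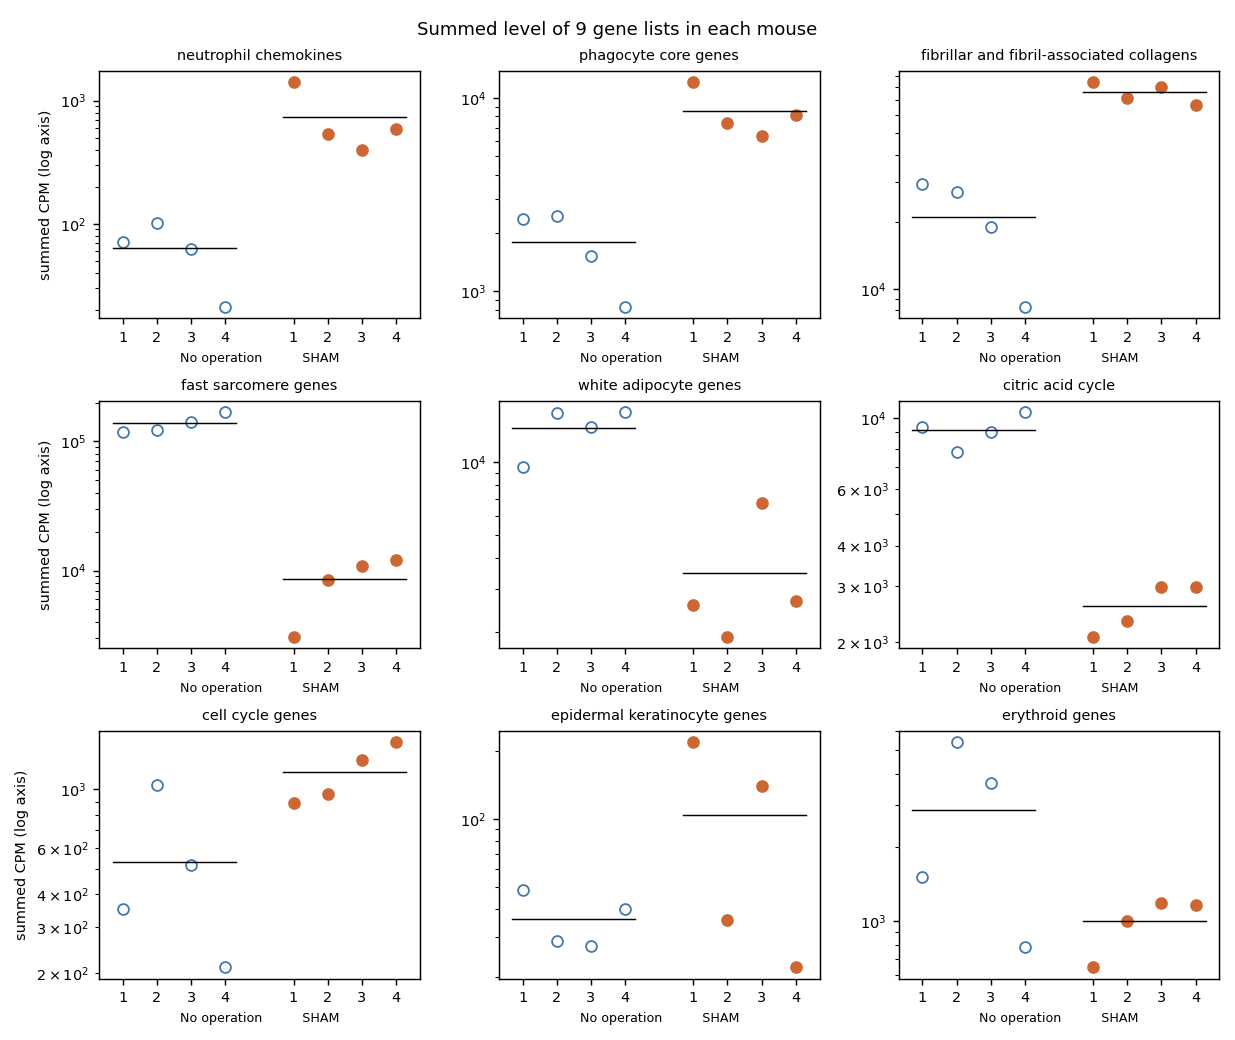
Summed CPM of the members of 9 lists in each mouse, on log axes (open blue, No operation replicates 1 to 4; filled orange, SHAM replicates 1 to 4; lines, group means). Phagocyte and collagen sums do not overlap between groups, and muscle and citric acid cycle sums are lower in each SHAM mouse than in any unoperated mouse, while cell cycle, keratinocyte and erythroid sums overlap.

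The summed level of collagen genes was higher in every SHAM mouse than in any unoperated mouse. Of the fibrillar and fibril-associated collagens 13 of 19 members tested were called higher and 0 lower, with a median of 1.31. *Col3a1*, the collagen of early scar, had 9679.7, 2180.1, 1517 and 1057 CPM in unoperated mice against 32269.6, 23143, 25909.6 and 22076 CPM in SHAM mice (log2 fold change 2.84 ± 0.618, adjusted p = 0.00197). *Col1a1*, the main chain of type I collagen, had 6428, 9386, 4789.9 and 1609 CPM and 21166, 20632, 20757 and 15574 CPM (log2 fold change 1.81 ± 0.432, adjusted p = 0.00345). *Col5a1* and *Col5a3*, which set fibril diameter, rose by 2.39 ± 0.438 and 2.42 ± 0.270, and the 3 chains of the microfibrillar collagen VI, *Col6a1*, *Col6a2* and *Col6a3*, by 1.31 ± 0.208, 1.33 ± 0.216 and 1.63 ± 0.235. Of the basement membrane genes 7 of 21 were called higher and 5 lower, against 25.7% and 25.1% of all genes tested, and 3 and 3 passed a log2 fold change threshold of 1. *Col4a1* and *Col18a1* rose by 0.72 ± 0.180 and 2.31 ± 0.153, and *Lamb1* rose by 1.43 ± 0.179 while *Lamb2*, the laminin beta chain of the neuromuscular junction, fell by 1.42. *Col4a3* and *Col4a4* fell, with log2 fold changes of -3.31 ± 0.530 and -2.31 ± 0.437. *Col3a1* and *Col5a1* were at 4.03 ± 0.325 and 3.13 ± 0.250 without No operation replicate 1.

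Most genes for the folding, cutting and crosslinking of collagen rose with it. In that list 20 of 25 members tested were called higher and 3 lower, with a median of 1.34. *Serpinh1*, the collagen chaperone HSP47, had 667, 453, 545 and 445 CPM in unoperated mice against 1240.3, 1697, 1511 and 1440.2 CPM in SHAM mice (log2 fold change 1.48 ± 0.174, adjusted p = 3.41e-05). *Lox*, lysyl oxidase, had 529.6, 158, 172 and 74.5 CPM and 1898, 1038, 1458 and 887 CPM (log2 fold change 2.50 ± 0.514, adjusted p = 0.00137). *P4ha3*, a prolyl hydroxylase, rose by 2.46 ± 0.550, *Bmp1*, which cuts the C-propeptide, by 1.99 ± 0.178, and *Adamts14*, which cuts the N-propeptide, by 2.88 ± 0.274. The 3 members called lower were *P3h2*, *Adamts3* and *Pcolce2*, at -1.41 ± 0.246, -1.48 ± 0.503 and -2.63 ± 0.403. *Adamts3* was not called without SHAM replicate 1 or 2 or No operation replicate 3 (-1.38 to -0.95, adjusted p of 0.0551 to 0.0987), and an antisense gene, Gm4524, covers 28.4% of the exon bases of *P3h2*. General secretory genes moved the same way, with 15 of 23 members of the secretory pathway and unfolded protein response list higher and 1 lower at a median of 0.88, including *Creb3l1*, a transcription factor of collagen-secreting cells, at 2.02 ± 0.262. *Lox* and *P4ha3* were at 3.29 ± 0.377 and 3.53 ± 0.304 without No operation replicate 1.

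Provisional matrix and elastic fibre genes rose in part. Of the matricellular and provisional matrix genes 16 of 25 members tested were called higher and 3 lower, and of the elastic fibre genes 11 of 17 members tested were called higher and 2 lower. With No operation replicates 2 and 3 both left out 8 and 7 were higher. *Postn*, periostin, had 2053, 329.7, 189 and 99.6 CPM in unoperated mice against 3175, 3828, 4422 and 4355 CPM in SHAM mice (log2 fold change 2.56 ± 0.764, adjusted p = 0.0123). *Fn1*, fibronectin, had 2295, 989.6, 1352 and 793 CPM and 4253, 2628, 3486 and 4286 CPM (log2 fold change 1.43 ± 0.351, adjusted p = 0.00413), and *Tnc*, tenascin C, was called higher. Unoperated replicate 1 was the highest of its group for *Postn* and *Fn1*, and without it the log2 fold change of *Postn* was 4.26 ± 0.395 (adjusted p = 1.48e-05). *Has2*, which makes hyaluronan, rose by 2.62 ± 0.380 while *Has3* fell by 2.66. *Fbn2*, the fibrillin of developing tissue, rose by 3.29 ± 0.649, and *Ltbp4*, a fibrillin-bound carrier of latent TGF-beta, fell by 2.44. With No operation replicates 2 and 3 both left out the counts called higher were 8 of the matricellular and 7 of the elastic fibre genes. *Has2* and *Fbn2* were at 3.27 ± 0.229 and 4.61 ± 0.384 without No operation replicate 1.

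Most small proteoglycans of mature tendon and fascia fell. In the list of small leucine-rich proteoglycans 2 of 13 members tested were called higher and 9 lower, with a median of -1.71. *Fmod*, fibromodulin, had 1224, 1753, 4340.0 and 2093 CPM in unoperated mice against 59.01, 170.4, 397 and 151 CPM in SHAM mice (log2 fold change -3.60 ± 0.575, adjusted p = 0.000256). *Kera*, keratocan, and *Prelp* fell, with log2 fold changes of -3.70 ± 1.000 and -1.71 ± 0.288. *Bgn*, biglycan, and *Lum*, lumican, were the 2 members called higher, at 1.51 ± 0.261 and 0.79 ± 0.181. In the tendon list 1 of 11 members tested were called higher and 5 lower, with *Comp*, cartilage oligomeric matrix protein, at -2.39 ± 0.722 and *Scx*, the tendon transcription factor, at -0.70 ± 0.485 (adjusted p = 0.231). Without No operation replicate 3 or SHAM replicate 2 there were 3 tendon genes lower, and with No operation replicates 2 and 3 both left out there was 1. *Kera* was at -2.98 ± 0.961 without No operation replicate 3. *Fmod* and *Kera* were at -4.21 ± 0.552 and -4.49 ± 1.12 without SHAM replicate 3.

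Some matrix proteases and some of their inhibitors were both higher. Of the matrix metalloproteinases 8 of 15 members tested were called higher and 1 lower. *Mmp14*, a membrane collagenase, had 356, 154, 94.9 and 48.6 CPM in unoperated mice against 1177, 1147, 993 and 1037 CPM in SHAM mice (log2 fold change 2.74 ± 0.476, adjusted p = 0.000455). *Mmp3*, stromelysin, rose by 3.00 ± 0.593 and *Mmp2*, a gelatinase of fibroblasts, by 1.67 ± 0.252. Among protease inhibitors and plasminogen genes 9 of 17 members tested were called higher and 4 lower. *Timp1*, the inducible inhibitor, had 54.2, 10.6, 8.53 and 3.93 CPM and 176, 229, 147 and 147 CPM (log2 fold change 3.18 ± 0.670, adjusted p = 0.00162), whereas *Timp4* fell by 4.35. *Mmp14*, *Mmp3* and *Timp1* were at 3.46 ± 0.339, 3.74 ± 0.544 and 4.50 ± 0.394 without No operation replicate 1. *Timp4* was at -5.88 ± 0.926 without SHAM replicate 3.

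Most activated fibroblast genes rose. In the activated fibroblast and myofibroblast list 15 of 25 members tested were called higher and 2 lower, with a median of 1.32. The summed level of the list was lower in every SHAM mouse than in any unoperated mouse, at 14914, 13357, 14246 and 17266 CPM in unoperated mice and 8029.6, 9384, 10537 and 10633 CPM in SHAM mice. *Cthrc1*, a secreted protein of scar fibroblasts, had 139, 18.5, 11.99 and 4.28 CPM in unoperated mice against 276, 348, 277 and 198 CPM in SHAM mice (log2 fold change 2.66 ± 0.822, adjusted p = 0.0148), and without No operation replicate 1 its log2 fold change was 4.57 ± 0.438 (adjusted p = 1.74e-05). *Acta2*, the smooth muscle actin of myofibroblasts and vessel walls, had 195, 78.1, 124 and 137 CPM and 230.2, 259, 485 and 367 CPM (log2 fold change 1.33 ± 0.302, adjusted p = 0.00262). *Lrrc15* had 155, 8.69, 5.99 and 2.10 CPM and 287, 296, 311 and 209.9 CPM, a call (log2 fold change 2.68 ± 1.03, adjusted p = 0.0391) that was lost without any 1 of 7 mice (adjusted p of 0.0524 to 0.0813) and was at 5.62 ± 0.433 (adjusted p = 6.34e-06) without No operation replicate 1, the highest unoperated mouse. The 2 members called lower, *Tpm1* and *Tpm2*, are tropomyosins that muscle fibres also make, and were the members with the highest unoperated levels, with *Tpm1* at 4728, 8929, 9277 and 10981 CPM and 402, 818, 899.7 and 1076 CPM. In the resting and adventitial fibroblast list 4 of 22 members tested were called higher and 6 lower, with a median of -0.47, against 25.7% and 25.1% of all genes tested. With total counts and no scaling factors 6 were higher and 4 lower, and with a log2 fold change threshold of 1 none was higher and 3 were lower. *Gsn*, gelsolin, fell by 2.57 and *Abca8a*, a lipid transporter, fell by 3.18, whereas *Pdgfra*, the growth factor receptor of fibroblasts, rose by 0.85 ± 0.214 and *Cxcl12* by 0.93 ± 0.220. Genes of TGF-beta signalling, the main fibrogenic pathway, had a median of 0.04 with 6 of 22 higher and 5 lower (3 lower with total counts). These counts are near the shares of all genes tested, 25.7% higher and 25.1% lower. *Tgfb1* had 43.8, 58.3, 38.4 and 26.2 CPM and 139.8, 124, 106 and 130.4 CPM (log2 fold change 1.58 ± 0.237, adjusted p = 0.000161), *Tgfbr2* rose by 1.03 ± 0.222, *Smad3* fell by 0.79 and *Itgb6* fell by 2.12.

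The 3 lowest medians of all lists were those of fast sarcomere, excitation and structural muscle genes. In the fast sarcomere list 17 of 17 members tested were called lower, against 25.1% of all genes, with a median of -4.09. *Myh4*, the myosin of the fastest fibres, had 17506, 29343, 30695 and 34501 CPM in unoperated mice against 444, 741, 1739 and 995 CPM in SHAM mice (log2 fold change -4.84 ± 0.629, adjusted p = 6.23e-05). *Acta1*, skeletal muscle actin, had 23089, 17285, 20473 and 27815 CPM and 463, 1849, 2311 and 3119 CPM (log2 fold change -3.52 ± 0.556, adjusted p = 0.000237). The summed level of the list was 119005, 121548, 142144 and 168682 CPM in unoperated mice and 3051, 8509.7, 10857 and 12169.6 CPM in SHAM mice, lowest in SHAM replicate 1. Fast muscle markers were thus abundant in the tissue labelled paraspinal. Slow sarcomere genes had a median of -2.59 with 9 of 15 lower and 0 higher, and *Myh7*, the slow myosin, fell by 3.61. Structural and costamere genes were lower in 26 of 26 members (median -3.08), including *Ttn*, titin, at -3.40 ± 0.524 and *Dmd*, dystrophin, at -2.28 ± 0.269. Genes of excitation and calcium release were lower in 19 of 19 members (median -3.51), including *Ryr1*, the calcium release channel, at -3.38 ± 0.475. *Myh7* was at -4.52 ± 0.757 without SHAM replicate 4.

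Genes of regenerating muscle were high in 3 of the 4 SHAM mice. In the list of myoblast fusion and embryonic muscle genes 11 of 22 members tested were called higher and 4 lower, with a median of 1.38, and without SHAM replicate 1 it was 13 higher and 5 lower with a median of 1.77. With the 8 mice fitted alone 7 were higher. *Mymk*, myomaker, which fuses myoblasts, had 0.276, 0.126, 0.533 and 0.491 CPM in unoperated mice against 0.112, 43.6, 38.4 and 55.6 CPM in SHAM mice (log2 fold change 6.58 ± 1.18, adjusted p = 0.000575). *Mymx*, its partner myomixer, had 0.0562, 14.7, 6.78 and 11.6 CPM in SHAM mice and at most 0.133 CPM in unoperated mice. *Myh8*, the perinatal myosin, had 13.8, 6.17, 12.1 and 8.13 CPM and 1.29, 486, 444 and 917 CPM (log2 fold change 5.52 ± 1.19, adjusted p = 0.00189). *Chrng*, the acetylcholine receptor subunit of immature fibres, had 0.345, 0, 0.333 and 0.561 CPM and 0, 25.4, 21.2 and 27.8 CPM, and *Chrne*, the subunit that replaces it in adult fibres, had 6.89, 16.2, 10.5 and 15.9 CPM and 0, 1.60, 1.38 and 1.44 CPM (log2 fold change -3.47 ± 0.746, adjusted p = 0.00184). Without SHAM replicate 1 the log2 fold changes of *Mymk*, *Chrng* and *Chrne* were 6.99 ± 0.277 (adjusted p = 1.18e-06), 6.32 ± 0.428 (adjusted p = 9.89e-06) and -3.06 ± 0.519 (adjusted p = 0.000594). *Igf2*, a fetal growth factor of regenerating muscle, rose by 2.69 ± 0.456, with SHAM mice at 102, 549, 444 and 644 CPM.

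Of the satellite cell and commitment genes 3 of 19 members tested were called higher and 9 lower, with a median of -0.60, and 5 were higher without SHAM replicate 1. *Pax7*, the marker of satellite cells, had 9.65, 12.6, 9.46 and 7.43 CPM in unoperated mice against 0.506, 6.31, 7.84 and 9.07 CPM in SHAM mice (log2 fold change -0.72 ± 0.554, adjusted p = 0.276), so 3 SHAM mice lay near the unoperated range and replicate 1 far below it. *Myog*, myogenin, which starts terminal differentiation, had 18.95, 6.93, 7.93 and 12.3 CPM and 0.955, 115, 70.1 and 95.5 CPM, a log2 fold change of 2.61 ± 0.847 that was 3.03 ± 0.298 (adjusted p = 2.98e-05) without SHAM replicate 1 and was not called without No operation replicate 3, at 2.47 ± 0.978 (adjusted p = 0.0516). *Myf6*, the regulator of adult fibres, fell by 2.32. In the atrophy and myostatin list 4 of 18 members tested were called higher and 10 lower, with 2 higher without any 1 of 5 mice (No operation replicates 2, 3 and 4 and SHAM replicates 1 and 2). *Mstn*, myostatin, the brake on muscle growth, had 43.5, 67.5, 95.4 and 107 CPM and 1.01, 2.03, 4.77 and 2.72 CPM (log2 fold change -4.89 ± 0.726, adjusted p = 0.000155). The atrophy ligases *Trim63* and *Fbxo32* fell, with log2 fold changes of -3.25 ± 0.519 and -3.02 ± 0.503, and *Fst*, follistatin, which binds myostatin, rose by 1.02 ± 0.265.

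Promoters of 3 muscle genes are shown because *Chrng* rose and *Ckm*, muscle creatine kinase, and *Pygm*, muscle glycogen phosphorylase, fell in the same tissue while each carries the E-box CAGCTG, a motif bound by myogenic factors such as MyoD and myogenin. The sequences are the 250 bases before the RefSeq start (GRCm38.p6, plus strand, chr1:87205561-87205810, chr7:19410844-19411093 and chr19:6384158-6384407) and capitals mark the motif.
Chrng: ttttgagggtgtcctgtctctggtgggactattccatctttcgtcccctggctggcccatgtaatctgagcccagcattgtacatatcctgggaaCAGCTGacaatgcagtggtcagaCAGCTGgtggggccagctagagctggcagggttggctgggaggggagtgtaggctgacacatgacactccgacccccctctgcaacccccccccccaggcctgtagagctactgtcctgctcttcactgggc
Ckm: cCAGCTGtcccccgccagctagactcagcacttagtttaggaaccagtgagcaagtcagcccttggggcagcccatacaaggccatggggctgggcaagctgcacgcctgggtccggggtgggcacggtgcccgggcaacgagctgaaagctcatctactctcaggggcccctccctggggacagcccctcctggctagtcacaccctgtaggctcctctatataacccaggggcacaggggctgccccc
Pygm: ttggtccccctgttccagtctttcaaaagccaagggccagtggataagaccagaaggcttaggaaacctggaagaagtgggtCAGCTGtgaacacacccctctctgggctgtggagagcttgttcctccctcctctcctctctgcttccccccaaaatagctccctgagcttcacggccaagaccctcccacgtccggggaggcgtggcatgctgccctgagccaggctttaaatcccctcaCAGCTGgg
The motif was found in 6 of 12 fast sarcomere genes, 9 of 18 glycogen and phosphocreatine genes and 5 of 15 fusion and embryonic muscle genes with a promoter in the table, and in 14.7% of all genes with one (13% of all promoters). These promoters were chosen after their genes' values were seen. *Ckm* had 8124, 9953, 12070.5 and 14461 CPM in unoperated mice against 174, 517, 732 and 735 CPM in SHAM mice (log2 fold change -4.37 ± 0.600, adjusted p = 8.92e-05), and *Pygm* fell by 4.52.

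**Figure D4:**
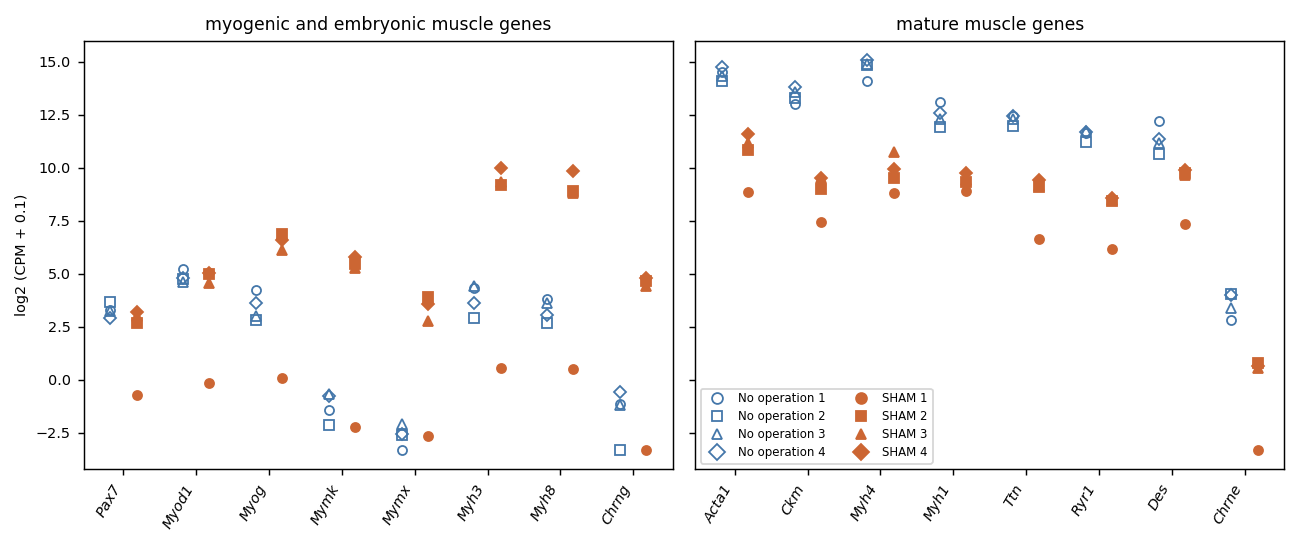
Level in each mouse, as log2 of CPM plus 0.1, of 8 myogenic and embryonic muscle genes (left) and 8 genes of mature muscle (right), with open blue symbols for No operation and filled orange symbols for SHAM. SHAM replicate 1 (filled circle) lies below the other SHAM mice for each gene drawn, and the other 3 SHAM mice lie above the unoperated mice for Myog, Mymk, Mymx, Myh3, Myh8 and Chrng.

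White adipocyte and fat synthesis genes were mostly lower, with large differences between SHAM mice. In the white adipocyte list 1 of 25 members tested were called higher and 18 lower, with a median of -2.10, and without SHAM replicate 1 13 members were lower. With No operation replicates 2 and 3 both left out 9 were lower. *Plin4*, a coat protein of lipid droplets, had 799.8, 1076, 1074 and 1423 CPM in unoperated mice against 83.2, 24.2, 315 and 56.00 CPM in SHAM mice (log2 fold change -3.19 ± 0.914, adjusted p = 0.00997). *Adipoq*, adiponectin, had 214, 480.1, 289 and 368 CPM and 43.9, 9.04, 203 and 21.03 CPM, so SHAM replicate 3 was near the unoperated mice. It was called in the full comparison (log2 fold change -2.29 ± 0.907, adjusted p = 0.0454) but not when any 1 of 6 mice was left out (-2.35 to -1.92, adjusted p of 0.0647 to 0.105), and without SHAM replicate 3 it was -3.77 ± 0.822 (adjusted p = 0.00269). *Cfd*, adipsin, had 883, 1273, 1177 and 1383 CPM and 97.1, 15.6, 991 and 25.5 CPM and was not called (log2 fold change -2.06 ± 1.24, adjusted p = 0.168), while without SHAM replicate 3 it was called at -4.68 ± 1.14 (adjusted p = 0.005). The 1 member called higher was *Mest*, an imprinted gene, which had 30.3, 21.3, 11.3 and 8.76 CPM and 106, 431, 311 and 512 CPM (log2 fold change 4.25 ± 0.512, adjusted p = 3.93e-05). Fat and triglyceride synthesis had a median of -1.95 with 11 of 16 lower and 1 higher. *Fasn*, fatty acid synthase, fell by 2.40, with a log2 fold change of -3.72 ± 0.289 (adjusted p = 1.23e-05) without SHAM replicate 3, and *Mlxipl*, which responds to glucose, fell by 3.57, and *Scd2*, a desaturase of many tissues, rose by 0.76 ± 0.146. In the brown adipocyte list 1 of 10 members tested were called higher and 6 lower, and *Ucp1*, which defines brown fat, had 3.997, 0.126, 0 and 0.0701 CPM and 0.112, 0, 0.0530 and 0 CPM and did not pass the filter on low counts. In the cholesterol list 1 of 16 members tested were called higher and 5 lower (3 lower without SHAM replicate 2, and 2 lower and 4 higher with total counts in place of TMM scaling). *Plin4* and *Mlxipl* were at -4.33 ± 0.918 and -4.41 ± 0.723 without SHAM replicate 3.

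Vessel genes were called in both directions. Of the pan-endothelial genes 1 of 20 members tested were called higher and 9 lower, with a median of -0.30, and with total counts in place of TMM scaling 3 were lower. *Pecam1*, the CD31 adhesion molecule, had 239, 185, 172 and 245 CPM in unoperated mice against 183, 179, 229.6 and 227 CPM in SHAM mice (log2 fold change -0.04 ± 0.169, adjusted p = 0.853). *Flt1*, a decoy receptor of VEGF, had 217, 157, 204 and 264 CPM and 52.5, 49.7, 71.6 and 64.3 CPM (log2 fold change -1.82 ± 0.171, adjusted p = 9.40e-06), and *Tek*, the angiopoietin receptor, fell by 1.01. Among tip cell and angiogenesis genes 12 of 21 members tested were called higher and 4 lower, with a median of 0.72. *Apln*, apelin of sprouting endothelium, had 7.44, 6.05, 3.66 and 7.57 CPM and 69.01, 31.99, 47.98 and 58.8 CPM (log2 fold change 3.07 ± 0.352, adjusted p = 2.93e-05), and its receptor *Aplnr* rose by 1.98 ± 0.278. *Vegfa* and *Vegfb*, growth factors that muscle makes in quantity, fell, with log2 fold changes of -1.27 ± 0.351 and -1.90 ± 0.195, while *Vegfd* rose by 1.89 ± 0.406 and *Hif1a*, the oxygen-sensing factor, by 2.20 ± 0.279. *Vegfa* had 284, 422, 354 and 559 CPM in unoperated mice against 284, 191, 127 and 72.01 CPM in SHAM mice, so SHAM replicate 1 lay just under the lowest unoperated mouse.

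Capillaries that feed muscle and fat express genes of fatty acid uptake, and in that list 3 of 13 members tested were called higher and 9 lower. *Aqp1*, a water channel, had 711, 714, 683 and 972 CPM in unoperated mice against 223, 172, 251 and 181 CPM in SHAM mice (log2 fold change -1.90 ± 0.238, adjusted p = 4.98e-05), and *Tcf15*, a factor of muscle capillaries, fell by 2.44. Among venular and adhesion genes 3 of 9 members tested were called higher and 0 lower, the 3 being *Icam1* at 1.68 ± 0.221, *Vcam1* at 1.59 ± 0.270 and *Selplg*, the selectin ligand of leukocytes, at 1.91 ± 0.361. Lymphatic genes were lower in 6 of 8 members tested and higher in 1. *Mmrn1* fell by 2.53 and *Flt4*, the receptor of lymphatic growth factors, fell by 1.17, and the 1 that rose, *Pdpn*, is shared with activated fibroblasts (2.27 ± 0.387). In the pericyte and smooth muscle list 3 of 18 members tested were called higher and 11 lower, with 5 higher without No operation replicate 1 and 7 lower without both that mouse and SHAM replicate 1. *Abcc9*, a channel subunit of pericytes and muscle, fell by 2.63 and *Pdgfrb*, the growth factor receptor of pericytes and fibroblasts, rose by 0.61 ± 0.146.

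Most energy metabolism genes of the mitochondrial lists fell. Citric acid cycle genes were lower in 24 of 24 members (median -1.82), respiratory chain complex I and III genes in 26 of 26 (median -1.62), and genes of complex IV and ATP synthase in 21 of 25 with 3 higher (median -1.31). *Sdha*, the catalytic subunit of succinate dehydrogenase, had 775, 675, 801 and 883 CPM in unoperated mice against 184, 177, 268 and 257 CPM in SHAM mice (log2 fold change -1.82 ± 0.159, adjusted p = 6.11e-06). Fatty acid oxidation and ketone use was lower in 25 of 26 members and higher in 1 (median -1.44). *Ppargc1a*, the coactivator of mitochondrial growth, had 31.6, 33.1, 38.2 and 48.02 CPM and 1.46, 1.34, 3.07 and 2.83 CPM (log2 fold change -4.11 ± 0.449, adjusted p = 2.23e-05). Glycogen and phosphocreatine genes were lower in 15 of 21 and higher in 2 (median -2.92). In glycolysis 8 of 27 members tested were called higher and 15 lower, with a median of -0.74, against 25.7% and 25.1% of all genes tested. *Aldoa*, the aldolase of muscle, fell by 3.03 and *Pdk4*, which blocks glucose oxidation in fasting muscle, fell by 3.73. *Pdk4* was at -2.87 ± 0.496 without No operation replicate 4.

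Some enzymes, transporters and receptor subunits have a form typical of adult muscle fibres and another form used in other cells or, for *Chrng*, in immature fibres. Of 13 such pairs, put together after the values were seen, 13 muscle forms were called lower and 10 of the other forms higher, and the same 10 pairs had opposite calls without SHAM replicate 1. Over all genes tested 25.1% were lower and 25.7% higher, but the choice of pairs in part fixed these counts. They describe the pairs shown and are no test of a pattern. *Slc2a4*, the insulin-responsive glucose transporter, had 554, 532, 539 and 723 CPM in unoperated mice against 14.4, 16.9, 43.1 and 21.5 CPM in SHAM mice (log2 fold change -4.61 ± 0.582, adjusted p = 5.20e-05). *Slc2a1*, the general glucose transporter, had 33.1, 21.2, 17.6 and 22.3 CPM and 250.4, 79.97, 64.5 and 71.4 CPM (log2 fold change 2.31 ± 0.475, adjusted p = 0.00139), highest in SHAM replicate 1. *Pfkm*, the muscle phosphofructokinase, fell by 4.08 and *Pfkl*, the liver form, rose by 1.68 ± 0.297. *Eno3* fell by 3.40 and *Eno1* rose by 1.73 ± 0.264, and *Pgam2* and *Pgam1* were at -3.89 ± 0.644 and 2.18 ± 0.323. In the respiratory chain *Cox6a2* fell by 4.21 while *Cox6a1* rose by 0.65 ± 0.0982, and in fatty acid import *Cpt1b* fell by 3.59 while *Cpt1a* rose by 1.42 ± 0.148. The 3 pairs without opposite calls were those of glycogen phosphorylase and creatine kinase, where *Pygl* and *Ckb* were not called (0.58 ± 0.378 and 0.56 ± 0.365), and of cytochrome c oxidase 7a, where *Cox7a2* also fell (-0.75 ± 0.139). Without No operation replicate 2 *Pygl* was called, at 0.93 ± 0.366 (adjusted p = 0.0466). *Slc2a1* was at 1.61 ± 0.314 without SHAM replicate 1.

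**Figure D5:**
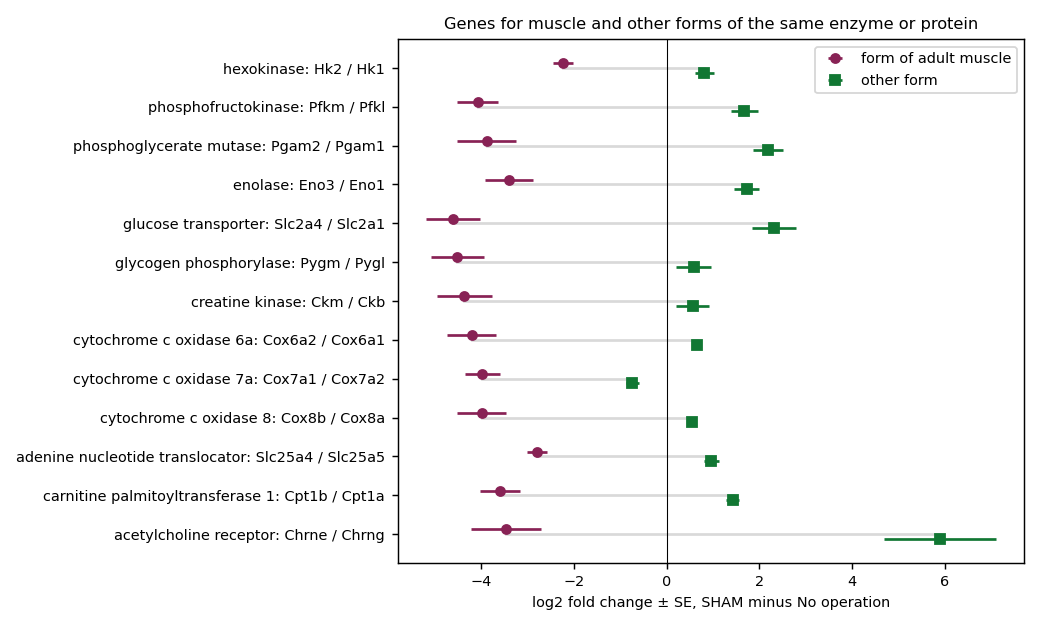
Log2 fold change with its standard error, SHAM minus No operation, of 13 pairs of genes for an adult muscle form (purple circles) and another form (green squares) of the same protein. The pairs were put together after the values were seen. Each muscle form was called lower, and 10 of the other forms were called higher.

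Genes of biosynthesis were mixed. In the pentose phosphate and nucleotide list 10 of 26 members tested were called higher and 7 lower, with *Tk1*, a thymidine kinase of dividing cells, at 1.74 ± 0.360 and *Prps1* at -1.35 ± 0.146. In the amino acid list 8 of 23 members tested were called higher and 11 lower. *Bcat1*, the cytosolic branched-chain aminotransferase, rose by 2.73 ± 0.394, *Aldh18a1*, a proline synthesis enzyme, by 1.38 ± 0.229, and *Got1*, of the malate-aspartate shuttle, fell by 3.01. Cell cycle genes had a median of 1.47, with 17 of 26 called higher and 0 lower. *Cdk1*, the mitotic kinase, had 5.17, 21.5, 6.06 and 0.841 CPM in unoperated mice against 27.3, 32.95, 43.2 and 50.7 CPM in SHAM mice (log2 fold change 2.19 ± 0.617, adjusted p = 0.00909), and *Mki67*, the Ki-67 antigen, had 17.1, 181, 71.5 and 4.63 CPM and 78.1, 121, 127 and 169 CPM (log2 fold change 0.85 ± 0.765, adjusted p = 0.351), a gene that was called without No operation replicate 2 at 1.99 ± 0.688 (adjusted p = 0.0276). The summed level of the list was 351, 1037, 518 and 211 CPM in unoperated mice, highest in the same replicates 2 and 3 that carried marrow genes, and 886, 962, 1289 and 1511 CPM in SHAM mice. With these 2 unoperated mice left out, 26 of 26 members were higher, and 10 were higher without No operation replicate 1, without SHAM replicate 4 or in a fit of the 8 mice alone, and 11 without SHAM replicate 3. *Bcat1* was at 3.36 ± 0.256 without No operation replicate 1. *Cdk1* was at 3.25 ± 0.483 without No operation replicate 2.

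Lysosomal genes rose in 23 of 26 members and fell in 2, with a median of 1.29. *Ctss*, cathepsin S of antigen-presenting cells, had 219, 108, 64.9 and 48.1 CPM in unoperated mice against 1393, 902, 772 and 1115 CPM in SHAM mice (log2 fold change 3.25 ± 0.462, adjusted p = 0.000114). *Ctsh*, another cathepsin, rose by 2.58 ± 0.319, *Tfec*, a macrophage factor, by 2.89 ± 0.438, and *Tfeb*, the general lysosomal factor, fell by 1.49. Cytosolic ribosomal protein genes were higher in 17 of 29 members and lower in 0, by small amounts (median 0.53), close to the threshold on fold. Of the iron and heme genes 8 of 14 members tested were called higher and 1 lower, including *Slc11a1*, a metal transporter of phagosomes, at 3.15 ± 0.419. Among immediate early genes 9 of 21 members tested were called higher and 3 lower (1 lower without No operation replicate 3 or 4 or SHAM replicate 2 or 4), with *Fos* at 2.22 ± 0.595 and *Nr4a1* at -2.37 ± 0.677. These genes can respond to handling of tissue, and the time from death to freezing is not given in the sources used here.

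Clock genes fell in 15 of 19 members and rose in 1 (median -1.40). *Dbp*, a direct output of the clock, had 79.5, 142, 159 and 126 CPM in unoperated mice against 24.3, 53.7, 33.6 and 27.7 CPM in SHAM mice (log2 fold change -1.86 ± 0.344, adjusted p = 0.000683), and *Per3* fell by 1.78. *Nr1d1*, a repressor in the clock, fell by 1.28, and *Npas2*, an activator, rose by 2.13 ± 0.324. The time of day of tissue collection is not given in the sources used here, so its part in these values was not tested. Genes often used as references were not constant. *Gapdh* fell by 1.61 and *Actb* rose by 1.49 ± 0.200, and in the whole list of 16 such genes 6 were called higher and 5 lower (3 lower without No operation replicate 2). Both genes have processed pseudogenes, so their counts are uncertain.

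Genes of neighbouring tissues were examined as well. In the cartilage list 1 of 18 members tested were called higher and 4 lower and in the bone and osteoclast list 6 of 22 members tested were called higher and 3 lower. Over all genes tested the shares were 25.7% higher and 25.1% lower. *Bglap*, osteocalcin, had 0, 122, 28.2 and 0.771 CPM in unoperated mice against 0, 2.73, 0.900 and 8.59 CPM in SHAM mice, so unoperated replicates 2 and 3 held more *Bglap* transcripts than the others, and with both left out 13 of 22 bone and osteoclast genes were higher and 0 lower. *Bglap* was not called (log2 fold change -3.63 ± 1.55, adjusted p = 0.0597), and it was without No operation replicate 1 or 4 or SHAM replicate 4 (-4.95 to -4.04, adjusted p of 0.0231 to 0.0427), when 5 to 7 genes of the list were lower. *Tnfsf11*, the ligand that drives osteoclasts and is also made by other cells, rose by 3.10 ± 0.614. Erythroid genes summed to 1511, 5403, 3674 and 779.9 CPM and 645, 994, 1184 and 1162 CPM, again highest in unoperated replicates 2 and 3, with 0 of 12 higher and 2 lower, and from 0 to 9 lower when 1 mouse was left out, most without No operation replicate 1 (8) or 4 (9). Keratinocyte genes were higher in 5 of 7 members tested and lower in 1, with 8 higher without any 1 unoperated mouse and 9 without SHAM replicate 4, when more members passed the filter, 2 higher with the 8 mice fitted alone, and with sums of 48.7, 28.97, 27.6 and 39.8 CPM and 218, 35.8, 139.9 and 22.1 CPM. *Krt5*, a basal keratin, had 0.414, 0.126, 0.133 and 0.491 CPM and 27.4, 2.03, 31.9 and 0.374 CPM, so SHAM replicates 1 and 3 carried nearly all of it. Schwann cell genes were higher in 3 of 16 members and lower in 0. Of 9 neuron genes tested 4 were higher and 2 lower, and of 9 central glia genes 0 were higher and 2 lower. The part of skin, marrow, bone or nerve carried with the sample in any of the results above was not tested.

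Laminectomy against SHAM, which asks whether removal of the lamina changed this soft tissue response, gave 0 called genes of 14765 (0%) in the same edgeR fit. The smallest adjusted p was 0.0698, and 2359 genes had an unadjusted p below 0.05. DESeq2 called 687 genes, 334 higher and 353 lower in Laminectomy mice. Among the genes shown above, *Cxcl5*, *Col3a1* and *Myh3* had log2 fold changes of -1.47 ± 0.926, -0.67 ± 0.579 and 0.61 ± 0.994 (adjusted p = 0.459, 0.591 and 0.789, edgeR). Others differed more, with *Serpinb2* and *Saa3* at -5.14 ± 1.10 and -4.02 ± 1.45 (adjusted p = 0.111 and 0.210, edgeR). *Aqp4* and *Chad* were at 3.66 ± 1.12 and 2.11 ± 0.685 (adjusted p = 0.162 and 0.178, edgeR). The edgeR p was below 0.05 before adjustment for 15 of 20 complement and 14 of 17 resident macrophage genes, and for 0 of 17 fast sarcomere genes. The lack of calls thus does not show that the surgical groups were alike.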

How the data were processed

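Bulk RNA from 12 mice was sequenced by the authors, 4 each of No operation, SHAM and Laminectomy, as stranded mRNA libraries. Per the labels and the paper's methods, the authors aligned reads with STAR 2.6.1b to GRCm38 (mm10), counted them per gene with featureCounts 2.0.1 at default settings and used DESeq2 1.30.1. The deposited table holds estimated counts that are not normalized: 10.2% of values, in 15.4% of 18996 genes, are not whole. The step that made fractional counts is not given in the sources used here. Values were rounded to whole counts first, and the largest change by rounding was 0.5. The design had assumed whole counts.

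Groups came from the labels, and the series' design text calls the 4 mice of a group biological replicates. The submitters used 3 of 4 per group and did not name them, so all 4 were used. Genes were filtered with filterByExpr (4231 removed, 378 of the table without any count), scaled with TMM (factors 0.849 to 1.13) and fitted over all 12 mice with edgeR 4.0.16 (glmQLFit, glmQLFTest, R 4.3.3). A standard error is the absolute log2 fold change divided by the square root of F. The common biological coefficient of variation was 28.3%. Counting error shrinks with depth, which was alike in all libraries, and reads were not marked by molecule. On simulated counts for 14671 genes, 49% of 100 genes changed 2-fold and 86% of 100 changed 4-fold were called, with 6 false calls, and none where nothing was changed. Only those genes were changed and all other genes had the same mean in every group, whereas 50.8% of genes were called in the data. The simulation also held no shifts of whole mice. Its rates therefore do not describe this comparison.

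Members, lists (68 lists, 1142 distinct genes tested) and their genes were chosen with earlier results of these data known. Named genes were the 10 largest increases and decreases among called genes whose higher group averaged at least 10 CPM and whose groups did not overlap, and members of the lists, those with the highest CPM or the largest change and others chosen after their values were seen. Serpinb10, Zfp142 and Aph1a are named for an exon overlap of at least 10% in GENCODE (GRCm38). Of the gene numbers, 18942 matched RefSeq, which gave promoters (GRCm38.p6). Alternatives were DESeq2 1.42.0, RLE, upper quartile and total-count scaling, no filter, the 8 mice alone, a fold threshold of 1, a replicate block, leaving out each mouse, and 2 choices of mice made after seeing the data.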

Additional observations from a re-analysis of the deposited data

Results flagged for a closer look

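Within each group of 4 mice, the gap between the most extreme mouse and its nearest neighbour was divided by the range of the group, for the 216 genes named and the summed level of 67 lists. In 60 of 566 groups (10.6%) this ratio passed Dixon's critical value for 4 samples, which chance passes in about 1 in 20 groups. That rate assumes normally distributed values, and CPM were used without a log transform, so the 10.6% is not read as an excess of unusual mice. The genes and sums are not independent, since the same mice enter each. The most frequent were No operation replicate 1, the highest unoperated mouse in 24 groups, and SHAM replicate 1, the highest SHAM mouse in 11 and the lowest in 5.

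No operation replicate 1 lay apart as the highest mouse of its group for *Postn* (0.882), *Cthrc1* (0.895), *Lrrc15* (0.957), *Cxcl3* (0.983), *Cxcl5* (0.971), *Saa3* (0.992), *Arg1* (0.997), *Cxcl2* (0.870), *Ptprn* (0.861), *Icam1* (0.855), *Ccl2* (0.961), *Ccl7* (0.966), *Cd14* (0.833), *C1qb* (0.894), *Col3a1* (0.870), *Col5a1* (0.832), *Lamb1* (0.839), *Bmp1* (0.857), *Has2* (0.994), *Fbn2* (0.852), *Timp1* (0.867) and *Ucp1* (0.969), and for the summed level of CC chemokines (0.935) and slow sarcomere genes (0.902). SHAM replicate 1 lay apart as the highest mouse of its group for *Cxcl3* (0.868), *Arg1* (0.908), *Nos2* (0.882), *Gzmb* (0.926), *Mmp3* (0.919), *Slc2a1* (0.916), *Pfkl* (0.891) and *Pgam1* (0.861), and for the summed level of proinflammatory cytokines and prostaglandin enzymes (0.853), mast cell genes (0.893) and lymphatic endothelial genes (0.842). SHAM replicate 3 lay apart as the highest mouse of its group for *Timp4* (0.847), *Fbxo32* (0.900), *Cfd* (0.916), *Fasn* (0.939), *Mlxipl* (0.830) and *Tek* (0.840), and for the summed level of white adipocyte genes (0.840). SHAM replicate 1 lay apart as the lowest mouse of its group for *Gpnmb* (0.878), *Cxcl10* (0.910), *Cd79a* (0.886), *Ryr1* (0.887) and *Chrne* (0.858). No operation replicate 3 lay apart as the highest mouse of its group for *Lamb2* (0.847), and for the summed level of small leucine-rich proteoglycans (0.968) and protease inhibitors and plasminogen system (0.946). No operation replicate 4 lay apart as the highest mouse of its group for *Retnla* (0.9501), *Aqp1* (0.894) and *Slc2a4* (0.881). SHAM replicate 4 lay apart as the highest mouse of its group for *Ccr2* (0.837) and *Myh7* (0.854). SHAM replicate 4 lay apart as the lowest mouse of its group for *Col1a1* (0.904), and for the summed level of bone and osteoclast genes (0.942). No operation replicate 1 lay apart as the lowest mouse of its group for the summed level of fat and triglyceride synthesis (0.930). No operation replicate 2 lay apart as the highest mouse of its group for the summed level of interferon response and MHC class I (0.868). SHAM replicate 2 lay apart as the lowest mouse of its group for the summed level of tip cell and angiogenesis genes (0.957).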

How the results depend on the processing

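SHAM against No operation gave 7941 called genes with DESeq2 (of 17077 tested, with its own filter), 7506 with RLE scaling, 7489 with upper quartile scaling, 7850 with total counts, 7765 with no filter and 7163 with the 8 mice fitted alone, against 7502 with the settings used. With an absolute log2 fold change above 1 there were 4589 (2297 higher and 2292 lower), which follows from the stricter threshold. Leaving out 1 mouse gave 6966 to 7642 called genes, with 3484 to 3928 higher and 3482 to 3732 lower. A pair of choices of mice made after seeing the data gave 7344 (No operation replicates 2 and 3 out, with 2 shared calls in the opposite direction) and 7125 (No operation replicate 1 and SHAM replicate 1 out). With total counts 5179 genes were higher and 2671 lower, with a median of 0.25. Laminectomy against SHAM gave 0 called genes in each edgeR setting, leaving out any 1 SHAM or Laminectomy mouse included, and 687 with DESeq2, and the cause of that difference was not tested.

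Replicate numbers are shared by the groups. With the replicate number as a block, 7442 genes were called (3771 higher, 3671 lower), 7316 of them shared with the fit without it, in the same direction. Same-numbered mice had correlations of their deviations of -0.228 to 0.195, so the numbers were not read as pairs.

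For the genes named, 3773 of 3859 gene and setting pairs kept direction and side of the threshold. DESeq2 gave no adjusted p for *Postn*, *Lrrc15*, *Ccl7*, *Spp1*, *Gzmb*, *Col3a1* and *Cfd*, so it made no call for these 7 genes and they are not in that count for DESeq2. Its log2 fold changes for the 6 of them called by edgeR were 2.57 to 5.14. The sign turned for *Pecam1* (-0.04 in all mice), to 0.22 with total counts and 0.039 with upper quartile scaling, ranged from -0.12 to 0.041 over the fits without 1 mouse and was 0.075 without No operation replicate 1 and SHAM replicate 1. *Ptgis* turned to 0.063 with total counts, ranged from -0.39 to 0.076 without 1 mouse and was 0.19 without No operation replicates 2 and 3. *S100a9* turned to 1.39 with the replicate block, ranged from -0.68 to 1.08 without 1 mouse and was 4.44 without both No operation replicates, and these also turned *Bglap* to 2.98, *Ltf* to 3.11, *Ngp* to 3.07 and *Cd79a* to 1.85. In all mice none of these but *Cd79a* was called. Depth of 16802988 to 18077863 counts limits genes near 1 CPM most. Counts of 3 or fewer called members of a list often moved by 1 to 3 members when 1 mouse was left out.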
